A study of Mus musculus with 6 samples.

Results

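Prostaglandin genes were examined in 393P, a mouse lung cancer cell line established from a lung adenocarcinoma. The 10 genes chosen were Pla2g4a, Ptgs1, Ptgs2, Ptges, Ptges2, Ptges3, Ptger2, Ptger4, Ptgr1 and Hpgd, and every probe set whose platform annotation names 1 of them alone was taken, 13 of the 45101 probe sets on the array. These 13 read 8 of the 18193 genes that have a probe set of their own. No probe set in the annotation used here named Ptgs1, and Ptges3 was named by 2 probe sets that also name its pseudogene Ptges3-ps, so neither gene has a probe set of its own here. There were 3 control vector arrays, from cells that stably carried the empty pcDNA vector, and 3 Zeb1 vector arrays, from cells with stable, constitutive expression of Zeb1, a zinc-finger transcriptional repressor of epithelial genes; both kinds of cell were transfected 393P cells grown in RPMI with serum, with 1 array for each of 3 cultures. The sample descriptions speak of Zeb1 induction where the protocol speaks of constitutive expression, and the labels do not say whether a group comes from 1 or more transfections, clones or pools. A p-value here reflects only variation among the 3 cultures of a group, moderated by limma with the variation of all tested probe sets.

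Prostaglandins are short-range lipid signals made from arachidonic acid. Cytosolic phospholipase A2 frees arachidonic acid from membrane lipids, a cyclooxygenase (Ptgs1 or Ptgs2) turns it into the unstable intermediate prostaglandin H2, and terminal synthases such as Ptges turn that into prostaglandin E2, which acts on G protein-coupled receptors, among them Ptger2 and Ptger4, and is then inactivated by the dehydrogenase Hpgd and the reductase Ptgr1. In epithelial tumours the inducible cyclooxygenase Ptgs2 is often abundant and Hpgd is often low.

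Pla2g4a and Ptgs2, which act before prostaglandin H2, and the reductase Ptgr1 were higher in Zeb1 vector cells, and the receptor Ptger4 was lower. Pla2g4a rose 4.05-fold, Ptgs2 rose 1.47-fold on its brighter and 2.35-fold on its dimmer probe set, and Ptgr1 rose 2.49-fold, while Ptger4 fell by 0.71 on the log2 scale. The terminal synthases moved less, Ptges by 0.27, 0.31 and -0.17 on its 3 probe sets and Ptges2 by 0.34 on the log2 scale. Of these, the 0.27 of Ptges and the 0.34 of Ptges2 were called as rises. The signals of Hpgd and Ptger2 were too low in both groups to be tested. Of the 9 member probe sets that passed the filter on low signals, all 9 of them on all 6 arrays, 6 rose, 1 fell and 2 were not called at a Benjamini-Hochberg adjusted p of 0.05 from limma. Over all 20594 tested probe sets 46.1% were called, 24.5% as rises and 21.6% as falls. The control and Zeb1 arrays did not overlap in 8 of the 9 member probe sets, and in 55.4% of all tested probe sets. The median log2 change was 0.34 over the 9 and 0.02 over all tested probe sets.

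**Figure D1:**
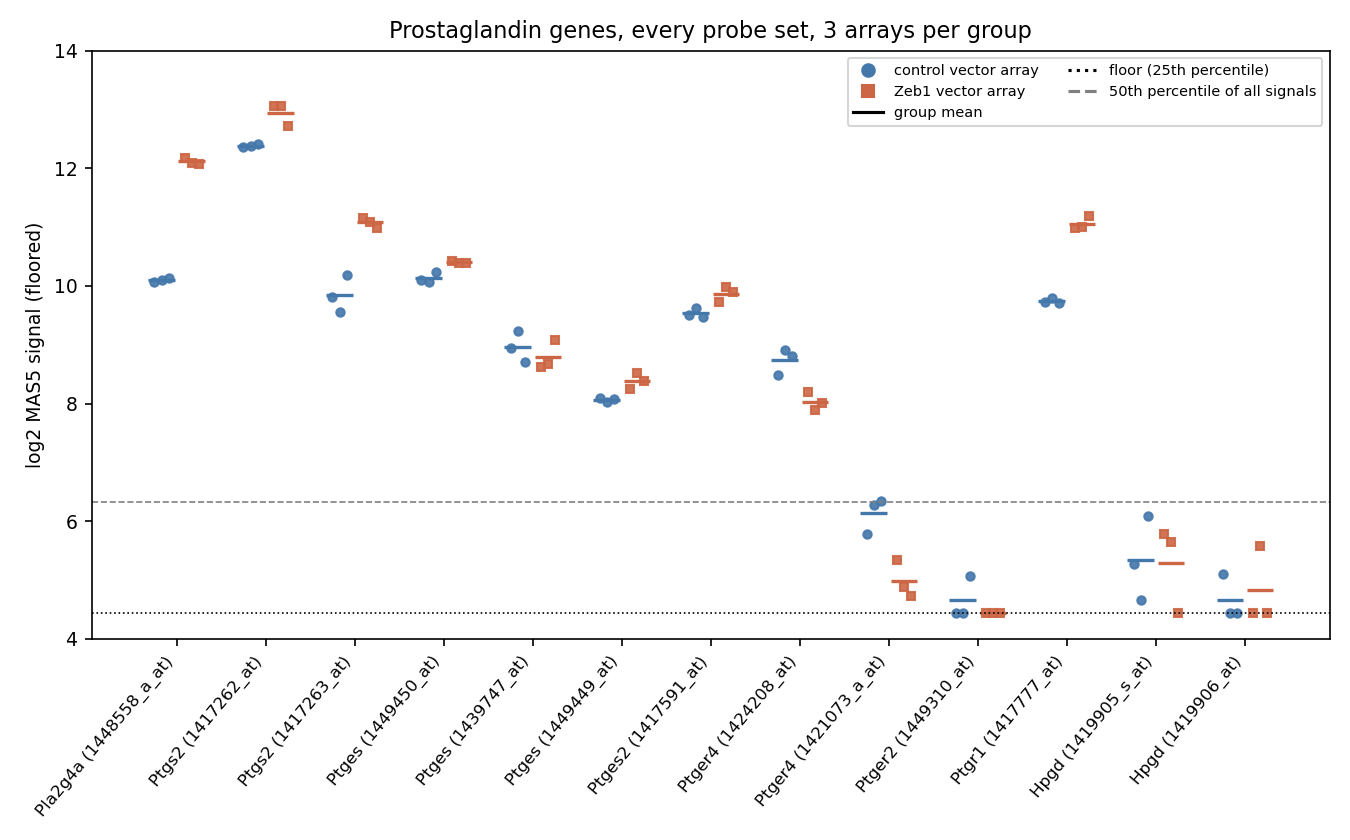
Log2 MAS5 signal of each of the 13 probe sets on each array, with 3 control vector arrays (circles) and 3 Zeb1 vector arrays (squares) and a line at each group mean; the dotted line is the floor at 4.45 and the dashed line the 50th percentile of all signals at 6.32. Pla2g4a, both Ptgs2 probe sets and Ptgr1 are higher on every Zeb1 array, Ptger4 is lower, and Hpgd and Ptger2 lie below the dashed line on every array.

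Each array carried between 24.0% and 26.4% of its probe sets at the floor. Zeb1 itself, read as a check of the labels, stood at 4.45, 4.45 and 4.50 on the control arrays and at 9.71, 9.59 and 9.78 on the Zeb1 arrays on its brightest probe set. The epithelial origin of the line was checked on 6 markers, all above the 50th percentile in control cells. In Zeb1 cells 4 of them fell, by very different amounts. The log2 changes were -8.03 for Cldn4, -7.05 for Epcam and -4.01 for Cdh1, but -0.16 for Krt8. Cldn4 passed the filter only through the control arrays, since its Zeb1 signals of 5.01, 4.60 and 6.06 lay under the array medians. Its change was -6.93 once signals under the 50th percentile were raised to it. Krt18 and Krt19, with log2 changes of 0.03 and -0.04, were not called (adjusted p = 0.697 and 0.586, limma). Of 5 lung epithelial markers only Sftpb had a group mean above the 50th percentile, and the lung lineage factor Nkx2-1 averaged 4.79 in control and 4.63 in Zeb1 cells, so the lung label rests on the line's origin and not on these markers. Among markers of other cell types that could sit in a culture, 2 of 5 leukocyte markers (Cd68 and Csf1r), 1 of 4 endothelial markers (Kdr) and 0 of 5 fibroblast markers were above that percentile. These 3 were the only ones of the 14 to pass the filter, and none of the 3 was called (adjusted p from 0.237 to 0.632, limma). The other 11 were not tested, and Pecam1 and Pdgfrb were at the floor on all 6 arrays. In RNA from whole cultures, fewer cells of a kind and less RNA per cell cannot be told apart.

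Pla2g4a, the cytosolic phospholipase that frees arachidonic acid, showed the largest change among the members. Its log2 signal was 10.06, 10.11 and 10.13 on the control arrays and 12.18, 12.09 and 12.08 on the Zeb1 arrays. Each group was tight and the groups lay far apart: the log2 change was 2.02 (SE 0.07, adjusted p = 2.25e-08 from limma), 4.05-fold, from 10.10 ± 0.035 to 12.12 ± 0.056 (SD, n = 3 each). Of all tested probe sets 5.28% had a larger absolute change. Leaving out any 1 array left a log2 change between 1.99 and 2.04.

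Ptgs2, the inducible cyclooxygenase, was read by 2 probe sets and rose on both. On the brighter, 1417262_at, the log2 signal was 12.36, 12.38 and 12.42 in control cells and 13.06, 13.06 and 12.72 in Zeb1 cells. On the dimmer, 1417263_at, it was 9.81, 9.56 and 10.18 in control cells and 11.16, 11.10 and 10.99 in Zeb1 cells. The groups did not overlap on either, although the third Zeb1 array was the lowest of its group on both. The brighter rose by 0.56 (SE 0.09, adjusted p = 0.000695) and the dimmer by 1.23 (SE 0.14, adjusted p = 7.64e-05, limma), so the direction was shared and the size was not; the 95% intervals, 0.35 to 0.76 and 0.91 to 1.55, did not meet. Both probe sets lay above the 50th percentile of all signals in control cells too. The other cyclooxygenase, Ptgs1, was not analysed here.

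Ptges, the inducible prostaglandin E synthase, was read by 3 probe sets that disagreed. On the brightest, 1449450_at, the log2 signal went from 10.11, 10.06 and 10.24 to 10.43, 10.40 and 10.39, a rise of 0.27 (SE 0.08, adjusted p = 0.0239, limma). The call was lost when any 1 of 4 arrays was left out, with adjusted p = 0.0723 and 0.0585 without control vector replicate 1 or 2 and 0.0712 and 0.0634 without Zeb1 vector replicate 1 or 2. On 1449449_at it went from 8.09, 8.03 and 8.08 to 8.24, 8.51 and 8.38, and the change of 0.31 was not called (adjusted p = 0.0777, 95% interval 0.02 to 0.61, limma), although the groups did not overlap. The third, 1439747_at, read 8.95, 9.24 and 8.71 in control and 8.62, 8.68 and 9.09 in Zeb1 cells. These groups overlapped, and the change of -0.17 was not called (adjusted p = 0.451, 95% interval -0.56 to 0.21, limma).

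Ptges2, a membrane-associated prostaglandin E synthase, had log2 signals of 9.51, 9.62 and 9.48 in control cells and 9.73, 9.98 and 9.90 in Zeb1 cells. The groups lay close but did not overlap, and the rise of 0.34 (SE 0.10, adjusted p = 0.0208, limma) was 1.26-fold. That call too was lost without any 1 of 4 arrays: adjusted p was 0.0632 and 0.0655 without control vector replicate 1 or 3, and 0.0867 and 0.0527 without Zeb1 vector replicate 2 or 3. Ptges3, the cytosolic prostaglandin E synthase that is also a co-chaperone of Hsp90, shares both of its probe sets with its pseudogene. Their mean log2 signals were 13.65 ± 0.059 and 13.97 ± 0.133 with control vector, against 13.60 ± 0.062 and 13.94 ± 0.059 with Zeb1 vector (SD, n = 3 each). The groups overlapped on both, and neither was tested because signals of gene and pseudogene cannot be parted on them.

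**Figure D2:**
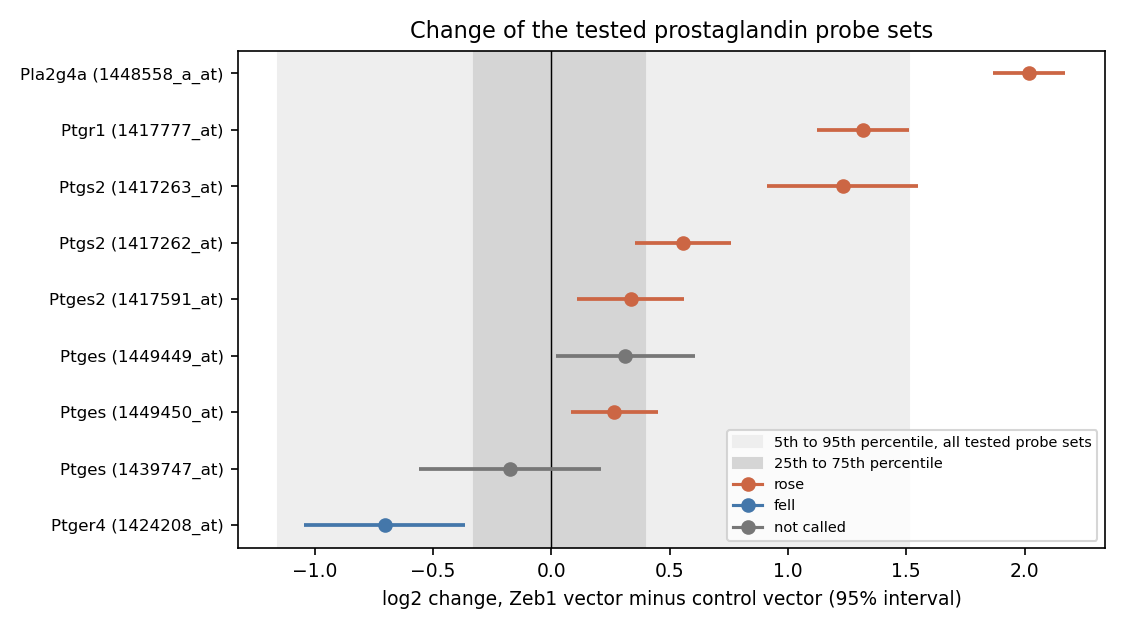
Log2 change, Zeb1 vector minus control vector, with the 95% interval from limma for each of the 9 tested probe sets; the shaded bands hold the middle of the distribution over all tested probe sets. Pla2g4a at 2.02 lies beyond the 95th percentile (1.51), Ptgr1 (1.32) and both Ptgs2 probe sets lie above the 75th (0.40), and Ptger4 lies below the 25th (-0.33).

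Among the receptors, Ptger4, the prostaglandin E2 receptor that raises cyclic AMP through Gs, fell. On the brighter of its 2 probe sets, 1424208_at, the log2 signal was 8.49, 8.90 and 8.81 in control cells and 8.19, 7.89 and 8.01 in Zeb1 cells. All 3 Zeb1 arrays lay below all 3 control arrays. The log2 change was -0.71 (SE 0.15, adjusted p = 0.00371, limma), 1.63-fold lower, and stayed between -0.83 and -0.62 when any 1 array was left out. The dimmer, 1421073_a_at, went from 5.79, 6.28 and 6.34 to 5.34, 4.87 and 4.73. The groups did not overlap there either, but only 1 of the 6 arrays reached its array's median and the probe set was not tested in the main fit. Its log2 change was -1.15, called when no filter was applied (adjusted p = 0.0272, limma), and it was -0.0060 once signals below the 50th percentile were raised to it. Ptger2, the other Gs-coupled receptor for prostaglandin E2, lay at the floor on 2 of the 3 control arrays and on all 3 Zeb1 arrays, with 5.07 on the remaining control array, so no level or change of it was measured.

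Of the breakdown genes, Ptgr1, a reductase that inactivates 15-keto prostaglandins and leukotriene B4, rose. Its log2 signal was 9.72, 9.79 and 9.70 on the control arrays and 10.98, 11.00 and 11.19 on the Zeb1 arrays, with no overlap. The log2 change was 1.32 (SE 0.09, adjusted p = 1.71e-06, limma), or 2.49-fold, and 10.4% of all tested probe sets had a larger absolute change. For Hpgd, the dehydrogenase that begins prostaglandin inactivation, signals were below the filter. On 1419905_s_at it read 5.27, 4.67 and 6.09 in control cells and 5.78, 5.65 and 4.45 (the floor) in Zeb1 cells. On 1419906_at 2 arrays of each group were at the floor. Neither probe set reached its array's median on any of the 6 arrays, and neither was called when all probe sets were tested (adjusted p = 1 and 0.906, limma). At such signals a fall cannot be measured, and no rise was called.

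The promoter letters are shown because Zeb1 is known to repress through the E-box CACCTG, and the member with this motif near its start can then be set beside its change. RefSeq windows of 250 bases before the annotated start (GRCm38.p6) were available for all 10 genes, 11 windows in all, since Pla2g4a has 2 starts. CACCTG or its complement CAGGTG, a match on either strand, was present in 2 of the 11 windows and in 17.2% of 32851 windows of all genes. The 2 were those of Ptgs2, 147 bases before the start (chr1:150099781-150100030, plus strand), and Hpgd, 99 bases before it (chr8:56294302-56294551, plus strand); both are printed 5′ to 3′ with the E-box in capitals.
Ptgs2: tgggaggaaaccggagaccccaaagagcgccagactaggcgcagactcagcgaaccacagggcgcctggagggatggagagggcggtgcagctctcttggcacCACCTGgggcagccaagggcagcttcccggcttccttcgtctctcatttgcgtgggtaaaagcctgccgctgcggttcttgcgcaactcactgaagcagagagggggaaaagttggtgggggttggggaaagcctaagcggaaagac
Hpgd: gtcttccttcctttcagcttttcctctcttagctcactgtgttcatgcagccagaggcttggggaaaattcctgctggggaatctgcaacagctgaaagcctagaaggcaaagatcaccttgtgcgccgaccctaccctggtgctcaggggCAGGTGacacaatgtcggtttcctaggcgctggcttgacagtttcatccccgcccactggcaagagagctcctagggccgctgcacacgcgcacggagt
The window of Ptgs2, which rose on both probe sets, therefore holds the motif, and that of Hpgd, which was not measurable, holds it too. The windows of the member with the largest rise and of the member that fell hold no CACCTG and are printed for comparison: Pla2g4a at its start nearer to Ptgs2 (chr1:149961291-149961540, minus strand) and Ptger4 (chr15:5244188-5244437, minus strand).
Pla2g4a: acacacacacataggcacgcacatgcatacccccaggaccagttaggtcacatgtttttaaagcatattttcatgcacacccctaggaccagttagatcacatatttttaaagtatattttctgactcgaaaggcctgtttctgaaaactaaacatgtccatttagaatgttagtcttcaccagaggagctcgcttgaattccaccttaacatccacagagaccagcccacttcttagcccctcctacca
Ptger4: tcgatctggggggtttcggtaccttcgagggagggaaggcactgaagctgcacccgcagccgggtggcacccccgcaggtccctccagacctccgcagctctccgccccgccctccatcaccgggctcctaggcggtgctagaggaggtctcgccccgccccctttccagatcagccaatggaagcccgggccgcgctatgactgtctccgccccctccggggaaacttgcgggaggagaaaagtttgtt
Of the other motifs searched, TATAAA on either strand was found in 1 member window, that of the second Pla2g4a start, and in 12.4% of all windows, and TGACGTCA, the cyclic AMP response element, was found in 0 member windows and in 1.55% of all. A match is a description of these letters, and no match says only that they are not in this window.

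Pla2g4a and Ptgs2 are neighbours. In RefSeq order 0 protein-coding genes lie between them on chromosome 1, they lie on opposite strands with annotated starts 139 kb apart (178 kb from the second Pla2g4a start), and both rose. The genes around them rose as well: of the 10 tested genes nearest to Ptgs2, 5 on each side and Pla2g4a among them, 8 rose and 0 fell, with a median log2 change of 0.91, where 25.8% of all 11893 genes rose and 23.5% fell (each gene by its brightest tested probe set). Odr4 and Ivns1abp, next to Ptgs2 on its far side, rose by 1.05 and 1.36. With 10 genes on each side 14 of 20 rose and 0 fell. On chromosome 1 as a whole 42.6% of 687 genes rose and 14.8% fell. Set against the median of its 10 nearest neighbours, Pla2g4a was still higher by 1.44, whereas Ptgs2 was at -0.36 on its brighter and at 0.32 on its dimmer probe set. With 20 genes on each side both Ptgs2 probe sets were above the neighbour median, by 0.25 and 0.92.

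Ptger4 went against its neighbourhood. Of the 10 tested genes nearest to it on chromosome 15, 7 rose and 0 fell, with a median log2 change of 0.49, and its own change relative to that median was -1.19. Within the 19 tested genes up to 10 places away 14 rose and 0 fell, among them Dab2 by 2.60 directly beside it, although on chromosome 15 as a whole more genes fell (35.1% of 485) than rose (18.1%). The neighbours of Ptgr1, by contrast, had a median change of 0.02, with 2 of 10 risen and 1 fallen, and Ptgr1 stood 1.30 above them. The part of these regional shifts in the change of each member was not tested.

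**Figure D3:**
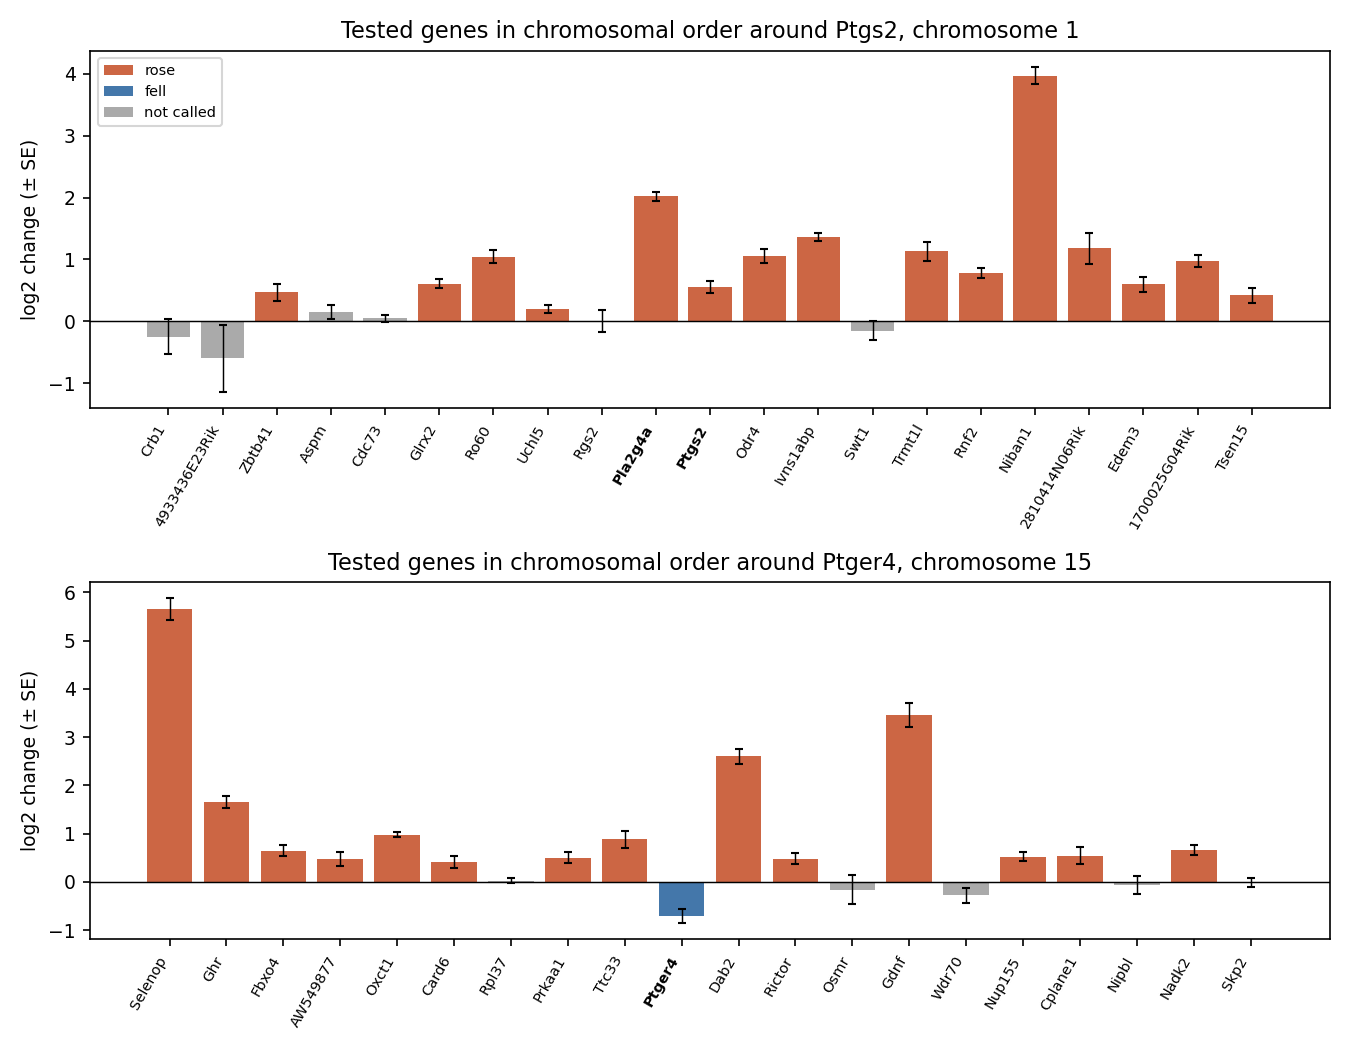
Log2 change, Zeb1 vector minus control vector, with limma's SE, of the tested genes in chromosomal order up to 10 places either side of Ptgs2 (top, chromosome 1) and Ptger4 (bottom, chromosome 15), coloured by call. Bars around Ptgs2 and Pla2g4a are mostly above 0 (14 of 20 neighbours rose), and Ptger4 at -0.71 is a called fall among neighbours of which 14 of 19 rose and 0 fell.

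The rest of the prostanoid and eicosanoid pathway was read through 6 lists of 68 genes, of which 64 had a probe set of their own and 36 passed the filter. Of these 36, 13 rose, 5 fell and 18 were not called; 49.3% of all tested genes were called, so the share of 50% lies near the background. The median log2 change was 0.15 over the 36 and 0.01 over all genes.

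Phospholipases A2 outside the member gene rose in 3 of 11 tested cases (27.3%, where 25.8% of all tested genes rose), and 0 fell. Pla2g7, a secreted enzyme that cleaves platelet-activating factor, had signals of 6.19, 5.14 and 5.36 in control and 8.79, 8.51 and 8.61 in Zeb1 cells. Its log2 change was 3.07 (SE 0.28, adjusted p = 1.49e-05, limma), and 2.31 once signals under the 50th percentile were raised to it, since all 3 control signals lay under it. Plaat3, a phospholipase and acyltransferase, rose by 1.63 and by 2.95 on another probe set, and the secreted phospholipase Pla2g12a by 1.23. Of 4 other prostanoid synthases and carbonyl reductases tested, 2 rose and 1 fell, beside 25.8% and 23.5% of all tested genes. Ptgds, the lipocalin-type prostaglandin D synthase, fell by 1.56, from 8.19, 8.15 and 8.27 to 7.25, 6.60 and 6.07 (adjusted p = 0.00105, limma), and its other probe set fell by 2.38. The carbonyl reductase Cbr3 rose by 2.59, from 6.02, 5.22 and 6.12 to 8.58, 8.59 and 7.97. Its control signals all lay under the array medians, so it passed the filter only through the Zeb1 arrays. The change was 2.05 once signals under the 50th percentile were raised to it. Cbr1, which can reduce prostaglandin E2, rose by 0.35. The call of Cbr1 was lost without control vector replicate 3 or Zeb1 vector replicate 2 or 3 (adjusted p = 0.0701, 0.0579 and 0.0577, limma). It was also lost with no filter (adjusted p = 0.0501, limma).

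Breakdown and transport genes other than the members rose in 3 of 4 tested cases, beside 25.8% of all tested genes. Slco2a1, the prostaglandin uptake carrier, went from 10.40, 10.44 and 10.13 to 11.86, 11.88 and 12.24, a rise of 1.67 (SE 0.12, adjusted p = 3.14e-06, limma), and its other 3 tested probe sets rose by 1.15 to 2.39. Abcc4, an exporter of prostaglandins and cyclic nucleotides, rose by 0.79. Akr1c18, an aldo-keto reductase of steroid and prostaglandin metabolism, rose by 2.84 from low control signals (5.73 ± 0.905, SD, n = 3). The change of Akr1c18 was 2.18 once signals under the 50th percentile were raised to it. The change of Ptgr2, another prostaglandin reductase, was -0.14, which limma did not call. Slco2a1 and Abcc4, carriers known to move prostaglandins into and out of cells, were both higher.

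Of 8 other prostanoid receptor genes 3 were tested, of which 0 rose and 1 fell, beside 25.8% and 23.5% of all tested genes. For Ptgdr and Tbxa2r the log2 changes were 0.11 and 0.05, neither of them called. Ptgfrn, a membrane protein known to inhibit prostaglandin F binding to its receptor, fell by 1.44, from 12.44, 12.62 and 12.33 to 10.99, 11.00 and 11.09 (SE 0.08, adjusted p = 6.6e-07, limma), and by 1.15 on its other probe set. Ptger1, Ptger3, Ptgdr2, Ptgfr and Ptgir lay below the filter. Among lipoxygenase and leukotriene genes 4 of 15 were tested and 1 rose, Lta4h, the leukotriene A4 hydrolase, by 0.29 (adjusted p = 0.0366, limma), a call lost with no filter (adjusted p = 0.138), with no intensity trend (adjusted p = 0.097) and without control vector replicate 2 or 3 or Zeb1 vector replicate 2 or 3 (adjusted p = 0.0983, 0.0541, 0.135 and 0.0801). The other tested Lta4h probe set had a log2 change of -0.40 and was not called (adjusted p = 0.319, limma).

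Genes that store and release arachidonic acid went both ways, with 4 of 10 up and 3 down, beside 25.8% and 23.5% of all tested genes. The acyl-CoA synthetase Acsl4, which prefers arachidonic acid, rose by 0.61 (SE 0.06, adjusted p = 2.66e-05, limma), and the diacylglycerol lipases Dagla and Daglb by 1.04 and 1.38. The lysophospholipid acyltransferases Mboat7 and Lpcat3, which put arachidonic acid back into phospholipids, fell by 1.07 (SE 0.07, adjusted p = 2.6e-06, limma) and by 0.60. Abhd6, a monoacylglycerol lipase, fell by 0.44, a call lost without control vector replicate 1 or 3 or Zeb1 vector replicate 2 (adjusted p = 0.111, 0.0702 and 0.096, limma), with no filter (0.136) and with no intensity trend (0.0671). Its other probe set, at -0.36, was not called (adjusted p = 0.132, limma).

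**Figure D4:**
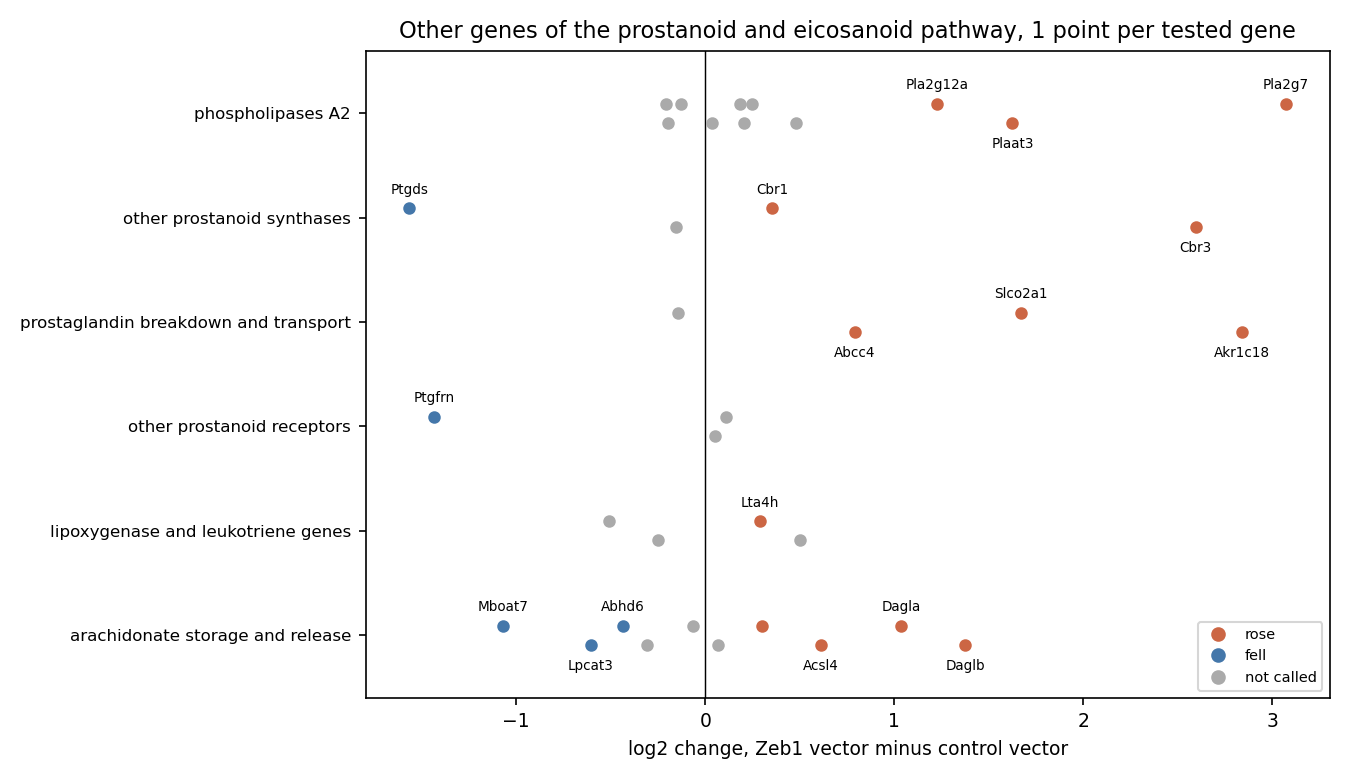
Log2 change, Zeb1 vector minus control vector, of the 36 tested genes of 6 pathway lists, 1 point per gene by its brightest tested probe set, coloured by call, with the genes named by rule labelled. Pla2g7 (3.07), Akr1c18 (2.84) and Cbr3 (2.59) lie farthest to the right, and Ptgds (-1.56), Ptgfrn (-1.44) and Mboat7 (-1.07) farthest to the left.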

How the data were processed

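Expression was measured on Affymetrix arrays, and the deposited table holds log2 values made by the authors with MAS5, per the submitters' processing notes; no version is given in the sources used here. Taken out of log2, 100% of values were multiples of 0.1 within 0.01 multiples, and the linear mean trimmed by 2% at each end was about 500 on every array. The table lacked 2 values, set to the floor. Signals below the pooled 25th percentile (log2 4.45) were raised to it. Probe sets with 1 gene symbol (34945; names from the platform annotation, 34741 also found by Entrez identifier in the RefSeq table of GRCm38.p6) were tested if at or above their array's median on at least 3 of 6 arrays, which left 20594. The groups were compared in limma 3.58.1 (lmFit and eBayes with an intensity trend; R 4.3.3, jsonlite 2.0.0), with Benjamini-Hochberg adjustment over all 20594 and calls made at 0.05; each adjusted p comes from this test unless a setting is named. Errors of changes are limma's moderated SE. With 3 arrays a group the number of arrays limits precision (median SE 0.15). For this comparison, changes were put into 200 of 20594 simulated probe sets. Recovered were 88.0% of log2 changes of 2, 44.0% of 1, 28.0% of 0.5 and 2% of 0.25. In the real data 46.1% of probe sets were called, so the adjustment was stricter in the simulation. These shares therefore do not give the recovery in the real data.

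Members and lists were chosen with earlier results of these data known. Named were all member probe sets, Zeb1, and up to 3 called rises and 3 called falls of each list with the largest changes; markers, neighbours and uncalled list genes were named after their values were seen. Neighbours follow the gene order of the RefSeq table. Alternatives were another or no floor, another or no filter, quantile normalization, no intensity trend, the replicate number as a block, 1 probe set per gene, each array left out, and changes relative to neighbouring genes; windows of 10 and 20 neighbours a side, and all windows for the dimmer Ptgs2 probe set, were added after seeing the data.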

Additional observations from a re-analysis of the deposited data

How the results depend on the processing

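The 6 rises and 1 fall among the members stayed within 1.5 times under the other floors, filters, scalings and fits, except that 2 member probe sets fell with no filter, the second being the dimmer one of Ptger4. Leaving out 1 array gave 5 to 6 calls, 4 to 5 of them rises, against 7 and 6; the losses were Ptges and Ptges2. Without an intensity trend the Ptges probe set 1449449_at was called (adjusted p = 0.0437, limma). With 1 probe set per gene 6004 genes were called, 3139 up and 2865 down, since fewer features were tested. Relative to the median of the 10 nearest tested genes the change of Ptgs2 on 1417262_at turned from 0.56 to -0.36, and relative to 10 genes on each side to -0.048; with 20 on each side it was 0.25. The dimmer Ptgs2 probe set, 1417263_at, stayed above the same medians, by 0.32, 0.63 and 0.92, so the reversal depends on the probe set. Pla2g4a, Ptgr1, both Ptgs2 probe sets and Ptger4 on 1424208_at kept their calls in every refit that included them.

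Same-numbered arrays of the 2 groups did not deviate together (correlations of 0.02, 0.01 and -0.04), so the numbers are not taken to pair cultures. With the replicate block 9377 probe sets were called against 9493, and the 7 member calls stayed at 7; of the genes named, Pde4b lost its call (adjusted p = 0.0614, limma). The calls of Cbr1, Lta4h, Abhd6 and Pde4b were also lost without single arrays, with adjusted p up to 0.0701, 0.135, 0.111 and 0.0875. Low signal limits Hpgd, Ptger2 and most of the prostanoid receptors.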

Other observations

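Genes known to respond to cyclic AMP, the messenger that Ptger4 raises, went both ways. Of 10 tested, each by its brightest tested probe set, 4 rose and 3 fell, beside 25.8% and 23.5% of all tested genes. The median log2 change was -0.02. For 1 of the 4 rises the other tested probe sets of the gene were not called, with log2 changes from -0.34 to 0.25. Crem, a cyclic AMP response modulator, went from 7.38, 7.37 and 7.12 in control cells to 9.04, 9.10 and 8.96 with Zeb1. It rose by 1.74 (SE 0.14, adjusted p = 5.57e-06, limma), and its other tested probe set rose by 1.42. The cyclic AMP phosphodiesterases Pde4d and Pde4b rose by 0.70 and 0.67; the call of Pde4b was lost without control vector replicate 1 or 2 or Zeb1 vector replicate 1 or 2 (adjusted p = 0.0694, 0.0572, 0.070 and 0.0875, limma). The phosphatase Dusp1 fell by 0.98, the kinase Sik1 by 0.71 and the nuclear receptor Nr4a1 by 0.62.

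Proteins that bind AU-rich elements, which are known to set the stability of Ptgs2 mRNA among others, fell in 5 of 9 tested cases (55.6%) and rose in 0, where 49.3% of all tested genes were called and 23.5% fell. The median log2 change was -0.38. The decay factors Zfp36 and Zfp36l2 fell by 0.65 and 0.54, and the stabilising protein Elavl1 fell by 0.48 (SE 0.06, adjusted p = 0.000123, limma), so members of opposite known effect were lower. Tested probe sets of Elavl1 disagreed in size, from -0.15 to -0.50, and 3 of 5 were called. The other tested Zfp36l2 probe set, at -0.22, was not called (adjusted p = 0.638, limma).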
